A study of Caenorhabditis elegans with 17 samples.

Results

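The mitochondrial ATP synthase (complex V) was described in dissected oocytes of wild-type *C. elegans* (strain N2). The description rests on 10 genes, picked by name from the 21459 genes of the deposited table. They encode subunits alpha (*atp-1*) and beta (*atp-2*), the stalk subunits OSCP (*atp-3*), F6 (*atp-4*) and d (*atp-5*), the paralogs of subunit b (*asb-1* and *asb-2*) and of subunit g (*asg-1* and *asg-2*), and the inhibitor *mai-2*. All 10 were found, with mean normalized counts between 188 and 3498.

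The labels list 17 oocyte libraries. Of these, 8 came from mothers kept on culture with 300 mM NaCl from the L4 larval stage until day 1 of adulthood, and 9 came from mothers kept on control NGM (standard agar medium) over the same time. The titles share 3 replicate numbers between the groups, with letters within a number. The supplement describes fewer replicates than there are libraries and does not name those entered, so which libraries the means cover is not known here. The oocytes were dissected with a small piece of gonadal sheath, the contractile somatic layer around them, still attached, so the libraries hold RNA of both. For each gene the table gives the authors' mean normalized count, which is the mean over all libraries entered after each was scaled for its sequencing depth. It pools both cultures, so it describes oocytes of the experiment as a whole. It has no SD, how deeply each library was sequenced is not known here, and no difference between genes given below could be tested. The difference between 300 mM NaCl and control culture was not analysed here.

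The ATP synthase uses the proton gradient built by the respiratory chain to make ATP. Its F1 head, built of alternating alpha and beta subunits with the catalytic sites on beta, protrudes into the matrix. A central stalk of gamma, delta and epsilon turns inside the head with a ring of c subunits in the inner membrane. A peripheral stalk of OSCP, b, d and F6 keeps the head from turning, and subunits e, f and g lie in the membrane, where they help enzyme dimers to form. These roles are known from the yeast and bovine enzymes. The inhibitor protein, known as IF1 in mammals, binds the head and blocks ATP hydrolysis when the gradient is lost. In *C. elegans*, *asb-1* is known as the germline form of subunit b.

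Because a longer transcript yields more reads, genes were compared as the mean normalized count per kilobase of exonic sequence, termed the level here. The 10 genes ran from a level of 379 (*asg-2*) to 1722 (*atp-1*), a 4.55-fold range, with a median of 820. The median over the 21399 genes with a known length was 14.2. The members stood at percentiles 87.0 to 99.4 of those genes, with a median percentile of 97.3, and 8 of the 10 lay at percentile 95 or above. The other 2, *asb-2* and *asg-2*, were the X-linked members. Together the 10 genes held 0.243% of the summed mean normalized counts of the table.

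**Figure D1:**
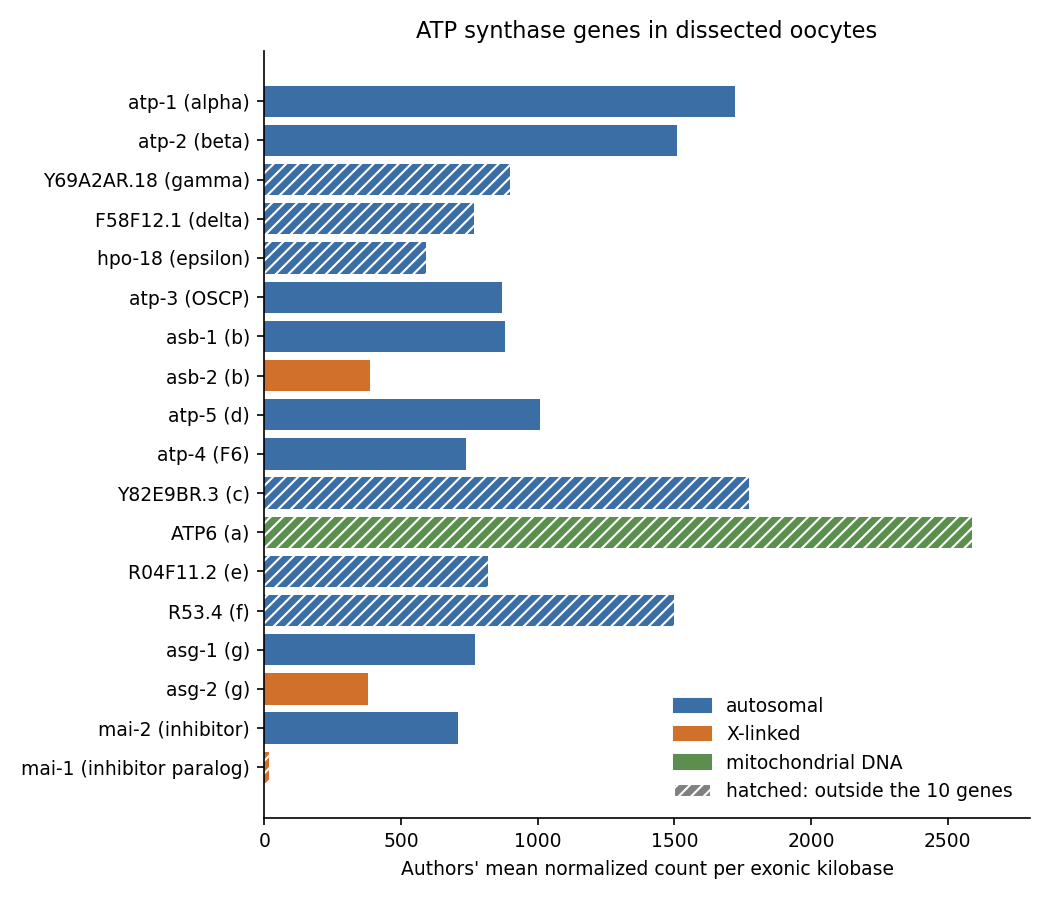
Level of each ATP synthase gene (authors' mean normalized count per exonic kilobase, horizontal axis from 0), grouped from the F1 head at the top to the inhibitors at the bottom, with the subunit in brackets. Solid bars are the 10 genes described here and hatched bars the other ATP synthase genes, and colour gives the chromosome class. *atp-1* (1722) and *atp-2* (1509) exceed the other solid bars, and the X-linked *asb-2* (385) and *asg-2* (379) are the shortest of them.

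Among the 10 genes, those of the catalytic head had the highest levels. *atp-1*, for subunit alpha, lies on chromosome I from 12652277 to 12654655 (WBcel235, forward strand, 5 exons, 2031 exonic bases) and had a mean normalized count of 3498, a level of 1722. *atp-2*, for the catalytic subunit beta, lies on chromosome III from 5228417 to 5230536 (forward strand, 5 exons, 1929 exonic bases) and had a mean normalized count of 2910, a level of 1509. The level of *atp-1* was 1.14 times that of *atp-2*. The enzyme holds alpha and beta in equal number. Both coding sequences are annotated with 1614 bases. These genes carried 59.6% of the summed mean normalized counts of the 10, and they ranked highest and second highest with every length tried and with none.

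The peripheral stalk genes lay below the head, with levels from 385 (*asb-2*, described with its paralog) to 1010. *atp-5*, for subunit d (chromosome V from 11122901 to 11123867, reverse strand, 4 exons), had a mean normalized count of 799 and a level of 1010. *atp-3*, for OSCP, which joins the stalk to the head (chromosome I from 5428533 to 5429908, reverse strand), had 897 and a level of 869. It has 5 annotated transcripts, the most of the 10 genes. *atp-4*, for F6 (chromosome V from 6426246 to 6427112, reverse strand, 2 exons), had a mean normalized count of 399 and a level of 736. With the autosomal stalk gene *asb-1*, and with *asg-1* and *mai-2*, which are not stalk genes, 6 of the 10 genes lay between 710 and 1010, a 1.42-fold range. Differences of this size between neighbours in the order carry no error estimate, and their order depended on the length used.

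Subunit b is a long helical protein that forms the shaft of the peripheral stalk, and it is encoded by a gene on an autosome and a gene on the X chromosome. The autosomal *asb-1* (WBGene00000206, chromosome III from 4594543 to 4595821, reverse strand) had a mean normalized count of 903 over 1026 exonic bases, a level of 880. The X-linked *asb-2* (WBGene00000207, chromosome X from 4469766 to 4471476, forward strand) had a mean normalized count of 454 over 1181 exonic bases, a level of 385. The level of *asb-1* was therefore 2.29 times that of *asb-2*, and *asb-1* supplied 69.6% and *asb-2* 30.4% of their summed level of 1265. Both genes have 5 exons and 4 introns, with coding sequences of 903 bases in *asb-1* and 915 in *asb-2*. The annotated 3′ UTR is 120 bases in *asb-1* and 254 in *asb-2*. Per coding kilobase the ratio was 2.01, where the length leaves out the UTRs but the count keeps any reads from them. The germline form was thus the larger share of the b mRNA. The X-linked form was still above 87.2% of all genes.

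Subunit g showed a ratio of similar size. The autosomal *asg-1* (WBGene00000209, chromosome I from 8692946 to 8693468, forward strand) had a mean normalized count of 367 over 476 exonic bases, a level of 772. The X-linked *asg-2* (WBGene00000210, chromosome X from 6841258 to 6842121, forward strand) had a mean normalized count of 188 over 497 exonic bases, a level of 379. The level of *asg-1* was 2.04 times that of *asg-2*, with 67.1% of the summed level of 1151 from *asg-1* and 32.9% from *asg-2*. Their coding sequences have the same annotated length, 393 bases, so that the ratio per coding kilobase equals the ratio of the mean normalized counts, 1.95. The gene structures differ, with 2 exons in *asg-1* and 4 in *asg-2*. The summed level was 1265 for the b genes and 1151 for the g genes, nearer to each other than the members of either pair.

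**Figure D2:**
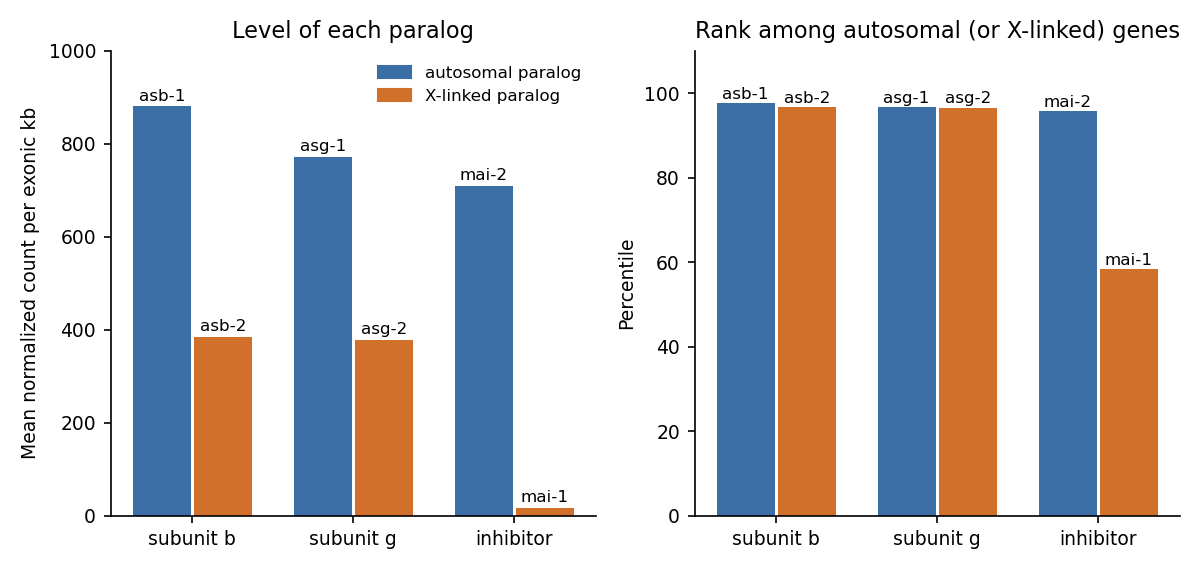
Levels (left, authors' mean normalized count per exonic kilobase) and percentiles (right) of the autosomal paralog (blue) and the X-linked paralog (orange) for subunit b, subunit g and the inhibitor. The percentile of an autosomal gene is its rank among 18403 autosomal genes and that of an X-linked gene its rank among 2979 X-linked genes. On the left *asb-1* (880) exceeds *asb-2* (385) and *asg-1* (772) exceeds *asg-2* (379), while on the right these 4 genes stand at percentiles 96.5 to 97.6 and *mai-1* at 58.4.

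The X chromosome carried lower levels than the autosomes in general, with a median level of 15.2 over 18403 autosomal genes and 10.3 over 2979 X-linked genes. Within their own chromosome class the X-linked paralogs ranked high. Among autosomal genes, *asb-1* stood at percentile 97.6 and *asg-1* at percentile 96.6. Among X-linked genes, *asb-2* stood at percentile 96.6 and *asg-2* at percentile 96.5, and 103 X-linked genes had a level at or above that of *asg-2*. The 8 autosomal members spanned percentiles 95.8 to 99.4 of their class. The lowest of them, *mai-2*, had 1.84 times the level of the higher X-linked member, so the autosomal and X-linked members did not overlap per exonic kilobase. With no division by length they did overlap, since *asb-2* then had a higher value (454) than *atp-4* (399), *asg-1* (367) and *mai-2* (331).

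**Figure D3:**
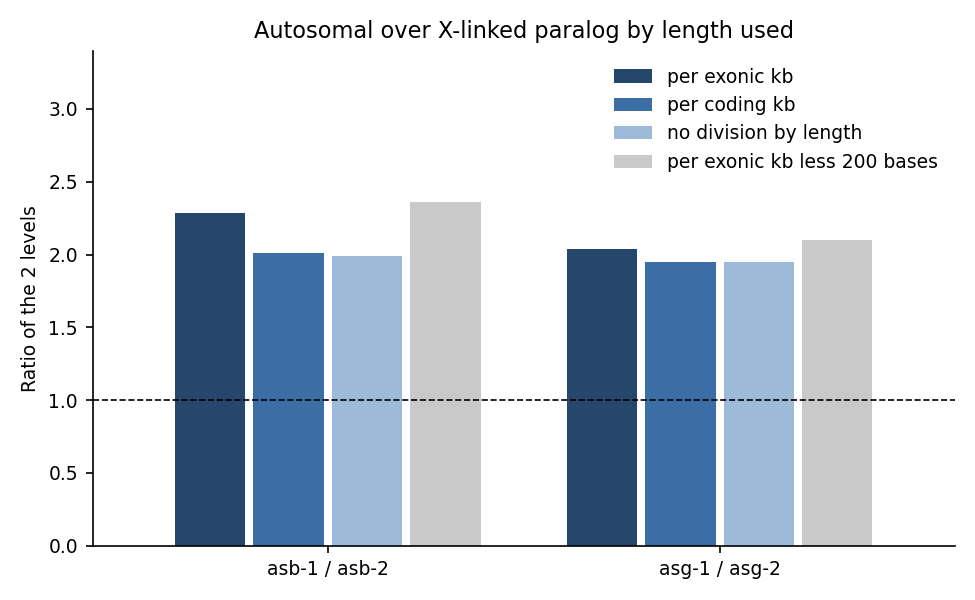
Ratio of the autosomal to the X-linked paralog (vertical axis from 0) for subunit b and subunit g with 4 ways of accounting for length. Bars above the dashed line at 1 mean a higher autosomal paralog, and the ratios lie between 1.99 and 2.36 for subunit b and between 1.95 and 2.1 for subunit g.

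The inhibitor *mai-2* (WBGene00015248, chromosome IV from 3385910 to 3386901, forward strand, 2 exons and 467 exonic bases, the shortest exonic length of the 10 genes) had a mean normalized count of 331 and a level of 710. This was 0.412 times the level of *atp-1* and 0.470 times that of *atp-2*, the subunits to which the inhibitor binds. Against the median of the 9 subunit genes, 869, the ratio was 0.817. That ratio was 0.415 with no division by length, 0.983 per coding kilobase, and 1.06 when an assumed fragment length of 200 bases was taken off each exonic length, a choice made after seeing the data. Whether *mai-2* lay below or above the typical subunit gene was therefore not settled, whereas it stayed below *atp-1* and *atp-2* under each of these settings. Its paralog *mai-1*, whose product lacks a mitochondrial targeting sequence and is cytosolic, lies on the X chromosome from 3114668 to 3116589. It had a mean normalized count of 17.7 and a level of 17.0, close to the median of all genes, so that *mai-2* had 41.8 times the level of *mai-1*. Per coding kilobase the ratio was 15.2, because 1040 exonic but only 264 coding bases are annotated for *mai-1*. Unlike the paralogs of subunits b and g, the inhibitor genes were thus represented almost wholly by the autosomal gene, which held 97.7% of their summed level.

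The other ATP synthase genes gave a similar picture to the 10. From a list of subunit genes outside the 10, 6 further nuclear genes were matched by name, with levels from 590 to 1772 and a median of 859. *Y82E9BR.3*, for the c subunit of the rotating ring, had the highest level, 1772, close to that of *atp-1*. *R53.4*, for subunit f, had a level of 1500, close to that of *atp-2*. This closeness held per exonic kilobase only. Per coding kilobase *Y82E9BR.3* had 3081 against 2167 for *atp-1*, and *R53.4* had 2167 against 1803 for *atp-2*. With no division by length they had 1072 and 995, against 3498 for *atp-1* and 2910 for *atp-2*. The genes for the central stalk were *Y69A2AR.18* (gamma, level 899), *F58F12.1* (delta, 766) and *hpo-18* (epsilon, 590), and *R04F11.2*, for subunit e, had a level of 820. None of these 6 is X-linked. The place of *hpo-18*, which has 290 exonic bases, depended on the length used. With the assumed fragment taken off the exonic length, *hpo-18* had 1901, above *Y69A2AR.18* (1084) and *F58F12.1* (1052) and close to *atp-1* (1910). Per coding kilobase *hpo-18* stayed below *Y69A2AR.18* and *F58F12.1*, with 1056 against 1174 and 1151. With no division by length it had 171, against 1053 and 563. The remaining subunit, a, through which protons pass, is encoded by ATP6 on mitochondrial DNA from 2634 to 3235, with a mean normalized count of 1558 and a level of 2587. Per exonic kilobase that is above all 16 nuclear ATP synthase genes, but per coding kilobase ATP6 had 2609, below *Y82E9BR.3*. Of the 12 protein-coding genes of mitochondrial DNA, 3 had a higher level still. Mitochondrial transcripts come from many genome copies per cell and are processed from long precursors, so their level is not on the same footing as that of nuclear genes.

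Beside lists of nuclear genes of the respiratory chain, the 10 ATP synthase genes had the highest median level per exonic kilobase, but the lists overlapped. *nuo-1* of complex I (1201) and *cox-6B* of complex IV (1028) lay above every member except *atp-1* and *atp-2*. The X-linked *asb-2* (385) and *asg-2* (379) lay below most of the chain genes. The median level was 820 for the 10 members, against 529 for 14 complex I genes, 582 for 5 complex II genes, 614 for 7 complex III genes and 745 for 7 complex IV genes (of 9 listed, 2 of which matched no name). Per exonic kilobase, none of these 33 genes exceeded *atp-1* or *atp-2*. The highest of the 33 was *nuo-1* of complex I, which binds NADH, with 1201, and the lowest was *nuo-3* of the same complex, with 155. The list medians, and the order of the 33 genes against *atp-1* and *atp-2*, were not examined with other lengths. That order may differ for short genes such as *ucr-11* of complex III, which has 281 exonic bases. Of the 29 autosomal genes among the 33, 1 lay below *asb-2* and *asg-2*. The median level of these 29 was 586, above both X-linked ATP synthase genes. The 4 X-linked genes among the 33 ran from 186 to 930, and their median of 247 was below both. For the export of the ATP made, the ADP/ATP carrier *ant-1.1* had a level of 3162, above every ATP synthase gene, while *ant-1.2*, *ant-1.3* and *ant-1.4* lay between 3.88 and 17.8. Of the phosphate carriers, *F01G4.6* had a level of 924 and *C14C10.1* one of 5.26.

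**Figure D4:**
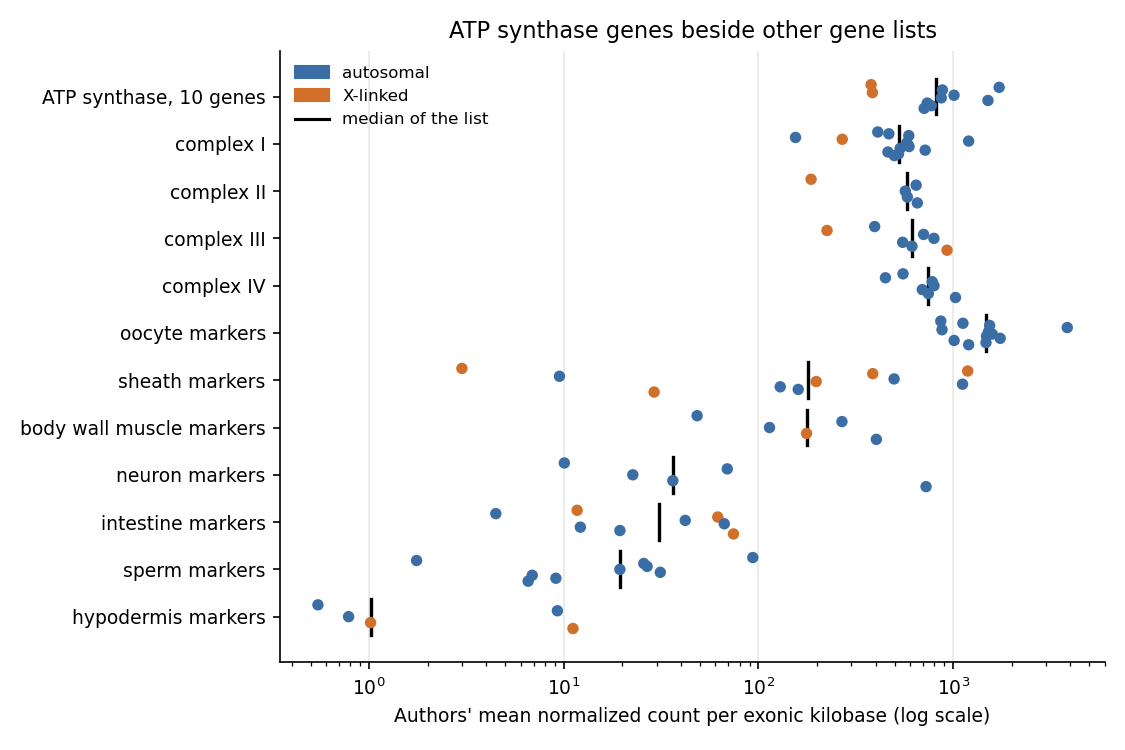
Level of each gene (authors' mean normalized count per exonic kilobase, log scale) in the 10 ATP synthase genes, the respiratory complexes and marker lists of 7 cell types, with autosomal genes in blue and X-linked genes in orange. The black line is the median of each list, which is 820 for the ATP synthase genes, 1479 for the oocyte markers and 179 for the gonadal sheath markers.

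The labelled cell type was checked against its markers. All 12 oocyte markers listed were measured and were above *asb-2* and *asg-2*, from 864 (*puf-11*) to 3856 (*perm-2*), with 1539 for the yolk receptor *rme-2*. The 10 gonadal sheath markers matched, of 11 listed, ran from 3.0 (*tnt-2*) to 1187 (*act-4*), and 4 of them were above both *asb-2* and *asg-2*. Of the genes that define the sheath, *lim-7* had a level of 129, *ceh-18* 29.1, and the gap junction genes *inx-8* and *inx-9* 1117 and 497. Body wall muscle markers reached 403 (*mlc-3*), neuron markers 726 (*snb-1*, also a general vesicle protein), sperm markers 93.5 (*ssq-1*), intestine markers 74.4 (*vit-2*) and hypodermis markers 11.1 (*col-19*). The medians of these lists, in the same order, were 176.5, 36.3, 19.4, 30.7 and 1.02, against 178.9 for the sheath markers. The body wall muscle list thus lay near the sheath list, and a share of RNA from other muscle was not tested. Oocyte and sheath RNA cannot be told apart in these libraries, and the part of the sheath in the levels of *asb-2* and *asg-2* was not tested.

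Reads that could be credited to more than 1 gene were few by position. Of the 10 genes, *asb-1*, *asb-2*, *asg-2*, *mai-2*, *atp-2*, *atp-3* and *atp-5* overlap no other annotated gene. *atp-4* shares 16 exonic bases with *T05H4.11* on the same strand, *asg-1* shares 18 with *K07A12.5* on the opposite strand, and *atp-1* shares 21 with the small RNA gene *21ur-12279*. Sharing of reads between similar paralogs was not tested, so the ratios within the b and g pairs rest on the authors' assignment of reads.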

How the data were processed

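Oocyte RNA was made into libraries with a stranded, low-input total RNA kit. Alignment to WBcel235 and quantification by the authors used STARsolo, and genes whose reads summed to under 10 were dropped before the authors' DESeq2 fit. The labels also name kallisto, and versions are not given in the sources used here. The signal used here is the deposited mean normalized count, a mean that the authors took across libraries scaled by their size factors. The other deposited columns hold the authors' comparison of 300 mM NaCl with control culture (log2 fold change, its standard error, Wald statistic and p-values) and were not used. Because the deposited means pool both cultures, the planned test of counts with edgeR was not run.

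Exonic, longest-transcript and coding lengths, positions and overlaps were read from the Ensembl gene models for WBcel235 (release 115), which matched 21399 of 21459 identifiers. The level is the mean normalized count divided by exonic kilobases, and a percentile is the percent of genes with a lower level. ATP6 was matched to its identifier by its position in RefSeq's gene table for WBcel235. The percentile and the level were tested on simulated data. The genes named are the 10 members, every further ATP synthase gene of a fixed list, the highest or lowest genes of the other lists, and, chosen after their values were seen, the carriers, *rme-2*, *lim-7*, *ceh-18*, *inx-8* and *inx-9*. Members and lists were chosen with earlier results of these data known. Alternatives changed the length used and the genes ranked against. Computations ran in Python 3.11.15 with pandas 2.3.3 and numpy 2.4.6, and plots in matplotlib 3.10.9.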

Additional observations from a re-analysis of the deposited data

How the results depend on the processing

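The level of *asb-1* over *asb-2*, 2.29, was 2.01 per coding kilobase, 1.99 with no division by length and 2.36 with an assumed fragment of 200 bases taken off the exonic length (chosen after seeing the data). For *asg-1* over *asg-2*, 2.04, the same settings gave 1.95, 1.95 and 2.1. The ratio of *mai-2* to the median of the 9 subunit genes, 0.817, was 0.983, 0.415 and 1.06, so it crossed 1 with the fragment length, and it was 0.806 with the longest transcript. The median percentile of the 10 genes, 97.3, was 96.9, 87.7 and 98.2, and it was 94.9 among genes whose mean normalized count reached 10, 91.8 where it reached 100 and 97.4 among protein-coding genes. The genes ranked against also changed with 2 of the lengths. Per coding kilobase only genes with a coding length were ranked, and with the fragment only genes of more than 250 exonic bases. The longest transcript left the other 3 results as they were. The X-linked genes were the lowest of the 10 with each length, but with no division by length *asb-2* ranked above 4 members.

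No paired analysis was possible because each gene has 1 mean over all libraries. The 7 alternatives that take library counts, leaving out each library among them, were therefore not run. Depth per library and spread between animals are unknown, so none of the ratios has an error.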

Other observations

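X-linked and autosomal paralogs of other respiratory enzymes were set side by side after the values of subunits b and g had been seen. For the flavoprotein of complex II, the autosomal *sdha-2* had a level of 582 and the X-linked *sdha-1* one of 186, a ratio of 3.12. For the core quinone-binding subunit of complex I, the autosomal *nduf-2.2* had 718 and the X-linked *gas-1* 269, a ratio of 2.67. The core genes of complex III departed from this order. The autosomal *ucr-2.3* had a level of 614, above the X-linked *ucr-2.2* (225) but below the X-linked *ucr-2.1* (930), with ratios of 2.73 and 0.661. An X-linked paralog was thus not the lower one in every family. No test bears on these values, and sharing of reads within the families was not tested.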
